A study of Mus musculus with 24 samples.

Results

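Cells given the transcription factor Sox17 were compared between day 7 and day 3 of culture, in 3 libraries a day, which are 6 of the 24 libraries of the series. They were chosen by the condition and the day in the library labels, and all genes were followed. The series sequenced messenger RNA of mouse heart cells kept in EGM2, a medium made for endothelial cells, under 4 conditions named Sox17, Erg, SEG and control, each at day 7 and day 3. The labels call the Sox17, Erg and SEG libraries iEC and the control libraries fibroblasts, and the study's question was whether such factors turn heart cells towards endothelium. How Sox17 was introduced, and what SEG holds, is not given in the sources used here. Whether replicates stem from different animals or dishes is not stated, so each p-value reflects library-to-library spread alone, and that may be technical. The spread was estimated jointly over all 24 libraries, not from the Sox17 libraries alone.

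Sox17 is a transcription factor of the SOX F family. In the embryo it acts in definitive endoderm and in the endothelium of arteries, where it works with Notch signalling in arterial identity. Notch ligands such as Dll4 and Jag2 on one cell activate receptors on the next, and the Hey and Hes repressors are among the targets.

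The 6 libraries held 44586227, 33180671 and 24090381 counts at day 7, and 35229998, 32303228 and 22496193 counts at day 3. Replicate 1 of day 7 stood apart from the other libraries. Ribosomal protein genes held 8.50% of its counts, against 3.69% and 3.38% in replicates 2 and 3 of day 7 and 4.03% to 4.56% at day 3. Its difference from its fellows ran with transcript length. Over the length decile with the shortest genes it lay a median of 1.17 above them on the log2 scale, and over the longest decile it lay 1.15 below them, while no day 3 library left its fellows by more than 0.25 at either end. A chi-square per degree of freedom of 463 and 458 separated it from replicates 2 and 3 of day 7, against 7.29 between those replicates and 7.67 to 19.8 between day 3 libraries. Counts of list members called are therefore given below with it and without it.

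**Figure D1:**
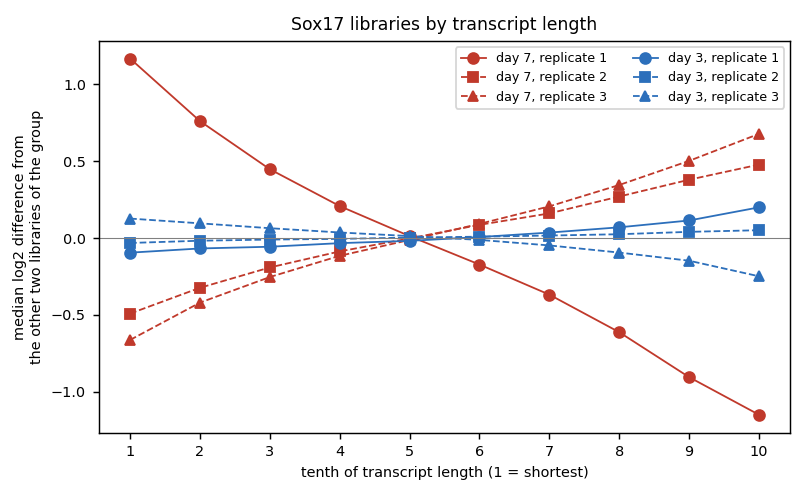
Median log2 difference of each Sox17 library from the other libraries of its day (vertical axis) in deciles of transcript length from shortest to longest (horizontal axis), over genes above 10 CPM. Replicate 1 of day 7 runs from 1.17 in the shortest decile to -1.15 in the longest, and the 3 day 3 libraries stay between -0.25 and 0.20 at both ends.

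Of 14804 genes tested, 2455 were higher (16.6%) and 1913 were lower (12.9%) at day 7 than at day 3, by edgeR's quasi-likelihood test with Benjamini-Hochberg adjusted p under 0.05. Without replicate 1 of day 7, 2506 were higher (16.9%) and 2511 lower (17%). List counts without replicate 1, given below, are to be read beside these shares. The sets called higher shared 1803 genes, which are 73.4% of the first and 71.9% of the second, and the sets called lower shared 1594, which are 83.3% and 63.5%. No gene was called in opposite directions. The test takes its spread from all 24 libraries, and a fit of only the 6 Sox17 libraries called 566 genes higher and 249 lower. The median log2 change over all genes tested was 0.04 with replicate 1 and -0.00384 without it, where a log2 change of 1 is a doubling. The share of rises to falls moved with length: in the shortest quintile of genes 560 were higher and 160 lower with replicate 1, against 317 and 528 without it, and in the longest quintile 322 were higher and 399 lower with it, against 560 and 325 without it.

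Sox17 itself (ENSMUSG00000025902, chromosome 1, 4490931 to 4497354, minus strand, mm10) had 615, 1302 and 1322 CPM in the day 7 libraries, against 1548, 1618 and 1652 CPM in the day 3 libraries, with the value of replicate 1 the lowest. Every day 7 library lay below every day 3 library, as in 16.6% of all genes tested. The log2 change of -0.57 ± 0.28 did not pass the edgeR test (adjusted p = 0.142), and it was -0.29 without replicate 1 (adjusted p = 0.255). Gene counts do not tell introduced Sox17 RNA from the cells' own. Control cells had 0 counts of Sox17 at both days, which allows up to 0.0474 CPM at day 7 and 0.0520 CPM at day 3 over the group, for counting error only. Erg had 3 counts in the day 7 libraries together and 4 in the day 3 libraries.

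The endothelial name of the cells was set against defining markers. Cdh5, the cadherin of endothelial junctions, had 71.5, 162 and 172 CPM in the day 7 libraries, against 182, 170.4 and 160.0 CPM in the day 3 libraries, and the days overlapped (log2 change -0.34 ± 0.23, adjusted p = 0.283). Pecam1, an adhesion molecule of the same junctions, had 2.66, 3.00 and 3.14 CPM in the day 7 libraries, against 2.46, 1.97 and 1.81 CPM in the day 3 libraries, so both days were low. Every day 7 library lay above every day 3 library, as in 17.5% of all genes tested. Cldn5, the tight junction claudin of endothelium, had 0 counts in all 6 libraries. Emcn, another endothelial marker, was not called in the edgeR test (log2 change -0.50 ± 0.20, adjusted p = 0.0649). It was called lower without replicate 1 of day 7 (-0.89, adjusted p = 3.24e-04) and not called without replicate 2 (-0.28, adjusted p = 0.239). The markers Kdr and Tie1 are given below. The fibroblast collagen Col1a1 had 3269, 4704 and 5086 CPM in the day 7 libraries and 7019, 7277 and 7346 CPM in the day 3 libraries. In these bulk libraries fewer cells of a type and less RNA per cell cannot be told apart.

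The largest changes were in genes of many kinds. Penk, the precursor of the enkephalin opioid peptides, had 592, 403 and 319 CPM in the day 7 libraries, against 3.38, 2.15 and 2.44 CPM in the day 3 libraries (log2 change 7.36 ± 0.33, adjusted p = 7.37e-12). Sostdc1, a secreted antagonist of BMP and Wnt ligands, had 83.9, 126 and 107 CPM in the day 7 libraries, against 1.27, 1.59 and 1.81 CPM in the day 3 libraries (log2 change 6.10 ± 0.27). Both lay under 4 CPM in each day 3 library and above 80 CPM in each day 7 library. Sv2b, a glycoprotein of synaptic vesicles, had 78.9, 157 and 139 CPM in the day 7 libraries, against 3.68, 3.41 and 3.75 CPM in the day 3 libraries, a rise of 5.11 ± 0.22. Coch, a secreted matrix protein known from the inner ear, had 62.2, 68.8 and 66.4 CPM in the day 7 libraries, against 2.97, 3.35 and 2.78 CPM in the day 3 libraries, a rise of 4.43 ± 0.21. Others among the 12 largest rises were Gabbr2 at 4.60, a subunit of the GABA-B receptor, Aard at 4.38, Ramp3 at 4.35, which partners the receptor of adrenomedullin, Ly6c1 at 4.34, Tub at 4.26 and Adgrl4 at 4.15. Ly6c1 has a near-identical copy, Ly6c2, and its counts are uncertain. Without replicate 1 the rises named here lay between 3.59 for Ramp3 and 7.07 for Penk.

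Among the 12 largest falls, Akr1c18, which inactivates progesterone, had 1.04, 0.764 and 0.604 CPM in the day 7 libraries, against 13.2, 17.4 and 20.03 CPM in the day 3 libraries (log2 change -4.35 ± 0.38, adjusted p = 6.60e-08). Car12, a membrane carbonic anhydrase, had 1.63, 1.99 and 2.19 CPM in the day 7 libraries, against 33.2, 27.2 and 25.5 CPM in the day 3 libraries (log2 change -3.89 ± 0.26). Aldh1a2, which makes retinoic acid, had 0.885, 0.845 and 1.17 CPM in the day 7 libraries, against 10.5, 12.3 and 11.4 CPM in the day 3 libraries (log2 change -3.57 ± 0.13). In each of them all 3 day 7 libraries lay far below all 3 day 3 libraries. Genes entered the largest rises and falls only if the libraries of the days did not overlap, so that separation was set by the rule. Lpl, the lipoprotein lipase that feeds fatty acids to muscle and fat, had 84.9, 55.1 and 63.6 CPM in the day 7 libraries, against 369.9, 367 and 347 CPM in the day 3 libraries (log2 change -2.41 ± 0.12). The remaining falls were Lipf at -3.37, Klhl4 at -2.83, the carboxylesterase Ces1g at -2.76, the vasopressin receptor Avpr1a at -2.72, Mbnl3 at -2.54, the microfibril protein Mfap4 at -2.53, the protease Adamts15 at -2.47 and the Wnt antagonist Sfrp2 at -2.20. Without replicate 1 the 12 falls lay between -4.59 for Akr1c18 and -2.06 for Sfrp2.

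**Figure D2:**
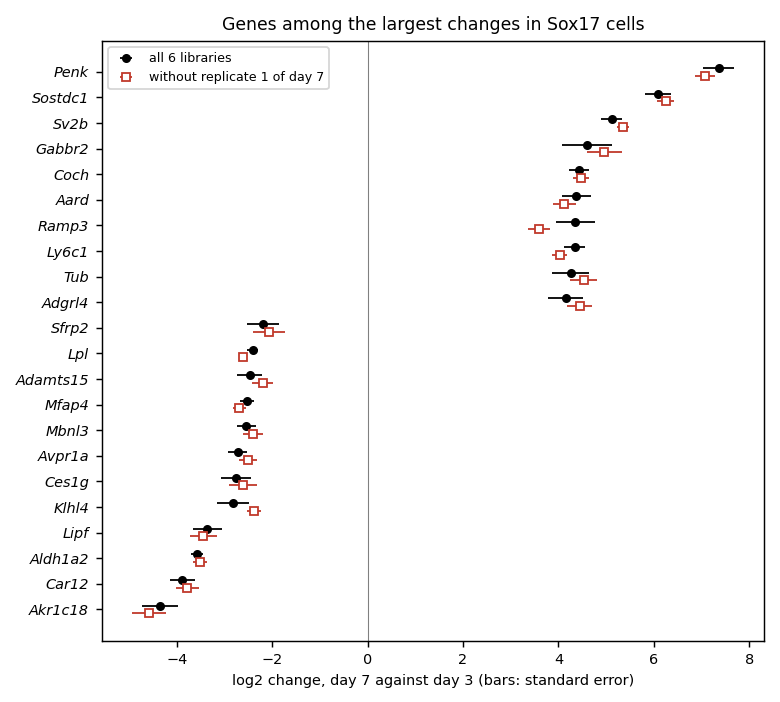
Log2 change, day 7 against day 3 (horizontal axis), of 10 of the 12 largest rises and the 12 largest falls, with all 6 libraries (filled circles) and without replicate 1 of day 7 (open squares); bars are standard errors of the fit. Penk has the largest rise, 7.36 with replicate 1 and 7.07 without it, and Akr1c18 the largest fall, -4.35 and -4.59.

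Arterial genes moved in both directions. Gja5, the connexin of arterial gap junctions, had 84.8, 61.01 and 68.04 CPM in the day 7 libraries, against 4.59, 4.85 and 4.76 CPM in the day 3 libraries (log2 change 3.91 ± 0.23, adjusted p = 4.50e-10; 3.77 without replicate 1). Jag2, a Notch ligand, had 9.33, 7.88 and 10.05 CPM in the day 7 libraries, against 0.513, 0.883 and 0.715 CPM in the day 3 libraries (log2 change 3.69 ± 0.30). Pdgfb, the growth factor by which endothelium draws pericytes, had 68.6, 50.5 and 61.6 CPM in the day 7 libraries, against 7.702, 6.53 and 7.87 CPM in the day 3 libraries (log2 change 3.03 ± 0.16). The libraries of each day lay close together in these 3 genes and the days did not overlap. Days that did not overlap, with day 7 higher, were found in 17.5% of all genes tested. Hey1, a repressor downstream of Notch, had 47.6, 42.5 and 42.8 CPM in the day 7 libraries, against 20.6, 15.2 and 18.4 CPM in the day 3 libraries (log2 change 1.29 ± 0.15). Bmx, a tyrosine kinase of arterial endothelium, had 337, 348 and 336 CPM in the day 7 libraries, against 168, 141 and 133 CPM in the day 3 libraries (log2 change 1.21 ± 0.09), and Sema3g, an arterial semaphorin, rose by 1.43 ± 0.16. Dll4, the Notch ligand of arteries and tip cells, rose by 1.91 ± 0.45 but stayed under 1 CPM in every library, at 73 counts over the day 7 libraries against 17 over the day 3 libraries, and its change was 2.66 without replicate 1 of day 3.

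Efnb2, the ephrin that marks arteries, went the other way, with 53.7, 126 and 131 CPM in the day 7 libraries, against 229.6, 231 and 218 CPM in the day 3 libraries (log2 change -1.13 ± 0.22, adjusted p = 7.70e-04). Replicate 1 was the lowest at day 7, and the log2 change was -0.82 without it. Igfbp3, which binds insulin-like growth factors, had 1134, 1619 and 1540.3 CPM in the day 7 libraries, against 1903, 1836 and 1824 CPM in the day 3 libraries, a fall of 0.37 ± 0.10 on the log2 scale, and of 0.23 without replicate 1. Of 27 arterial and Notch genes tested, 11 rose and 4 fell, and 12 rose and 5 fell without replicate 1, beside 16.6% higher and 12.9% lower over all genes tested. The falls were near that share. Their median log2 change was 0.32, beside 0.04 over all genes tested.

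**Figure D3:**
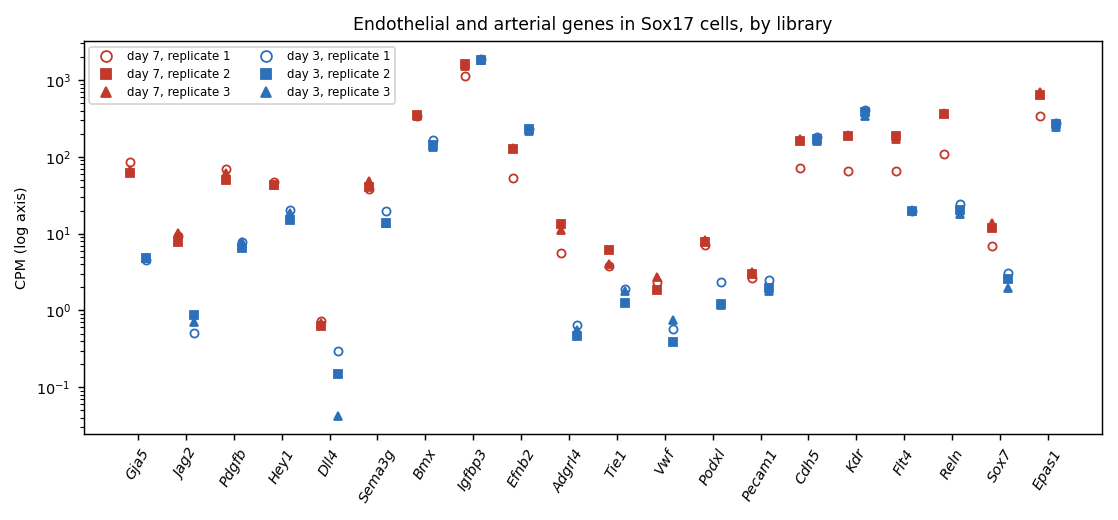
CPM on a log axis (vertical) of 20 endothelial and arterial genes (horizontal) in each Sox17 library, day 7 in red and left, day 3 in blue and right, with open circles for replicate 1. Gja5, Jag2 and Pdgfb are higher in all 3 day 7 libraries, Kdr and Efnb2 are lower in all 3, and the days overlap for Cdh5.

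Among receptors and surface proteins of endothelium, the VEGF receptors parted. Kdr, the main receptor of VEGF-A, had 65.2, 185 and 193 CPM in the day 7 libraries, against 413, 378 and 339 CPM in the day 3 libraries (log2 change -1.35 ± 0.27, adjusted p = 7.77e-04), and its log2 change was -0.9969 without replicate 1. Flt4, the receptor of VEGF-C, had 64.7, 189 and 169 CPM in the day 7 libraries, against 19.8, 19.6 and 20.5 CPM in the day 3 libraries (log2 change 2.82 ± 0.25, adjusted p = 1.03e-07), and its rise was 3.16 without replicate 1. Both genes were lowest at day 7 in replicate 1. Flt1, which binds VEGF-A with high affinity, had 3.38, 8.81 and 8.65 CPM in the day 7 libraries, against 4.35, 4.44 and 5.47 CPM in the day 3 libraries and was not called with replicate 1 (log2 change 0.54 ± 0.25, adjusted p = 0.103) but was without it (0.89, adjusted p = 2.28e-04). Adgrl4, an adhesion receptor of endothelium, had 5.63, 13.2 and 11.2 CPM in the day 7 libraries, against 0.649, 0.471 and 0.547 CPM in the day 3 libraries. The orphan Tie receptor Tie1 had 3.84, 6.11 and 4.04 CPM in the day 7 libraries, against 1.89, 1.24 and 1.81 CPM in the day 3 libraries (log2 change 1.51 ± 0.25), and Vwf, the clotting factor stored in endothelium, had 2.36, 1.83 and 2.76 CPM in the day 7 libraries, against 0.568, 0.382 and 0.758 CPM in the day 3 libraries (log2 change 2.04 ± 0.34). Podxl, a sialomucin of the vessel lumen, rose by 2.26 ± 0.27, and Mmrn2, a matrix protein of endothelium, fell by 2.27 ± 0.40. The rise of Pecam1 was 0.48 ± 0.17 (adjusted p = 0.0368), and leaving out replicate 2 or 3 of day 7, or replicate 2 or 3 of day 3, ended its call (0.40 to 0.45).

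Over the core endothelial list 13 of 34 tested genes rose and 6 fell, with a median log2 change of 0.45, and 12 rose and 9 fell without replicate 1. Over all genes tested 16.6% rose and 12.9% fell, and the 6 falls were near that share. Summed over the 35 genes of the list, the level was 1046, 1268 and 1404 CPM in the day 7 libraries, against 1992, 1807 and 1668 CPM in the day 3 libraries. The sum was lower in every day 7 library although more members rose than fell. Abundant members such as Kdr weigh more in it than scarce ones, and the part of each member was not tested. In control cells 7 of the 34 rose and 5 fell between the days, at a median log2 change of 0.55. Over all genes tested 16.1% rose and 13.4% fell in control cells.

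Of 25 endothelial transcription factors tested, 7 rose and 2 fell, and 9 rose and 2 fell without replicate 1, where 16.6% of all genes tested rose and 12.9% fell. Without replicate 3 of day 3, 4 rose, and without replicate 3 of day 7, 6 fell. Sox7, a SOX F relative of Sox17, had 6.97, 11.7 and 13.6 CPM in the day 7 libraries, against 3.03, 2.56 and 1.94 CPM in the day 3 libraries (log2 change 2.08 ± 0.23, adjusted p = 9.73e-07). Epas1, the hypoxia-inducible factor of endothelium, had 338, 647 and 707 CPM in the day 7 libraries, against 279.6, 264 and 242 CPM in the day 3 libraries (log2 change 1.11 ± 0.21; 1.37 without replicate 1). Lmo2, a partner of blood and vessel transcription factors, rose by 1.04 ± 0.14, and Meox2 fell by 1.57 ± 0.19. Sox18, the other SOX F relative, had 9 counts over the day 7 libraries and 1 over the day 3 libraries. The ETS factor Fli1 had 6.58, 9.38 and 9.94 CPM in the day 7 libraries, against 9.73, 8.09 and 8.08 CPM in the day 3 libraries and was not called (adjusted p = 0.978).

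Of 15 venous and lymphatic genes 3 rose and 4 fell, and 4 rose and 5 fell without replicate 1. The rises were near the 16.6% found over all genes tested, where 12.9% fell. Reln, a secreted glycoprotein of lymphatic endothelium, had 109, 363 and 368 CPM in the day 7 libraries, against 24.3, 20.3 and 17.97 CPM in the day 3 libraries (log2 change 3.75 ± 0.34; 4.13 without replicate 1). Nr2f2, the factor that sets venous identity, had 16.4, 23.4 and 24.9 CPM in the day 7 libraries, against 24.8, 24.9 and 23.3 CPM in the day 3 libraries and was not called (adjusted p = 0.248). Nrp2, a co-receptor of lymphatic VEGF signalling, fell by 1.43 ± 0.23, and the scavenger receptor Stab2 by 3.06 ± 0.58, at under 3 CPM in every library. Of 13 tip cell genes 3 rose and 2 fell, and 4 rose and 3 fell without replicate 1, and 5 fell without replicate 3 of day 7. Both tip cell counts were near the same shares over all genes. Of the tip cell genes, Adm, the vessel peptide adrenomedullin, had 184, 131 and 126 CPM in the day 7 libraries, against 67.7, 77.6 and 83.4 CPM in the day 3 libraries (log2 change 0.95 ± 0.13), and Plaur, the urokinase receptor, had 12.6, 11.3 and 10.99 CPM in the day 7 libraries, against 25.7, 33.4 and 37.8 CPM in the day 3 libraries (log2 change -1.47 ± 0.12).

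Fibroblast genes fell more often than they rose. Of 40 fibroblast genes 20 fell and 8 rose, with a median log2 change of -0.32, and 23 fell and 8 rose without replicate 1. Over all genes tested 12.9% fell and 16.6% rose, and the 8 rises were near that share. Col1a1, a chain of the main fibrillar collagen, fell by 0.73 ± 0.11 on the log2 scale from the levels given above, with a log2 change of -0.56 without replicate 1. Pdgfra, the PDGF receptor that marks fibroblasts, had 37.97, 89.3 and 107 CPM in the day 7 libraries, against 186, 164 and 144 CPM in the day 3 libraries (log2 change -1.08 ± 0.25; -0.75 without replicate 1). Dcn, a small proteoglycan that binds collagen, had 45.03, 63.5 and 62.9 CPM in the day 7 libraries, against 114, 108 and 101 CPM in the day 3 libraries (log2 change -0.92 ± 0.11). In these 3 genes every day 7 library lay below every day 3 library, as in 16.6% of all genes tested. Fap, a fibroblast surface protease, fell by 2.09 ± 0.19 and Lum, another collagen-binding proteoglycan, by 1.83 ± 0.16. Col3a1 had 344, 560.0 and 591 CPM in the day 7 libraries, against 576, 599.8 and 544 CPM in the day 3 libraries, and the days overlapped. Pi16, a marker of adventitial fibroblasts, rose by 1.99 ± 0.31, and by 1.24 without replicate 1. The list sum was 37421 to 42084 CPM in the day 7 libraries, against 54294 to 55227 CPM in the day 3 libraries, so fibroblast RNA remained abundant. In control cells 18 of the 40 also fell and 13 rose between the days, at a median log2 change of -0.30. Over all genes tested 13.4% fell and 16.1% rose in control cells.

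Of 20 basement membrane genes 5 were higher and 4 lower, and 6 higher and 4 lower without replicate 1, not far from the 16.6% higher and 12.9% lower over all genes tested. Without replicate 3 of day 7, 9 were lower. Col18a1, the collagen that holds endostatin, had 107, 115 and 113 CPM in the day 7 libraries, against 32.3, 33.9 and 37.9 CPM in the day 3 libraries (log2 change 1.69 ± 0.08). Lama5, a laminin chain, had 44.5, 58.3 and 78.8 CPM in the day 7 libraries, against 21.4, 21.9 and 19.4 CPM in the day 3 libraries (log2 change 1.53 ± 0.16), and the proteoglycan Agrn rose by 1.11 ± 0.18. Col15a1, a collagen beneath endothelium and muscle, had 23.96, 42.7 and 46.5 CPM in the day 7 libraries, against 114, 117 and 99.3 CPM in the day 3 libraries (log2 change -1.55 ± 0.17).

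Of 19 contractile genes 5 rose and 1 fell, against 3 risen and 4 fallen without replicate 1 of day 7, and 3 risen without replicate 1 of day 3. Over all genes tested 16.6% rose and 12.9% fell. No direction is drawn for the list. Acta2, smooth muscle actin, had 2987, 1803 and 1805 CPM in the day 7 libraries, against 1124, 1461 and 1674 CPM in the day 3 libraries (log2 change 0.63 ± 0.18, adjusted p = 0.011), and its change was 0.35 without replicate 1 of day 7 (adjusted p = 0.0665) and 0.49 without replicate 1 of day 3 (adjusted p = 0.0707). Cnn1, the calponin of smooth muscle, had 93.3, 48.1 and 44.8 CPM in the day 7 libraries, against 20.97, 30.3 and 34.7 CPM in the day 3 libraries (log2 change 1.12 ± 0.28; 0.70 without replicate 1, adjusted p = 0.00974). Lmod1, which nucleates actin in smooth muscle, had 35.9, 27.9 and 27.4 CPM in the day 7 libraries, against 6.05, 9.74 and 9.47 CPM in the day 3 libraries (log2 change 1.86 ± 0.26; 1.72 without replicate 1), and Synpo2, an actin-bundling protein, rose by 1.23 ± 0.21 and by 1.52 without replicate 1. Tagln, another smooth muscle actin binder, had 1349, 681 and 666 CPM in the day 7 libraries, against 692, 863 and 1001 CPM in the day 3 libraries and was not called (adjusted p = 0.804). The light chain Myl9 had 785, 309 and 291 CPM in the day 7 libraries, against 221, 282 and 318 CPM in the day 3 libraries, with a rise of 0.75 ± 0.27 that was not called without replicate 1 of day 7 (0.13) or without replicate 1 or 2 of day 3 (0.62 and 0.78).

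Interferon-stimulated genes rose together. Interferons act through transcription factors that bind an interferon-stimulated response element in promoters. Of 26 such genes tested 20 rose and none fell, with a median log2 change of 1.08, and 21 rose and none fell without replicate 1, by the same edgeR test. Over all genes tested, 16.6% rose. Bases are given 5′ to 3′ on the gene's strand, from GRCm38.p6. To show the element, the 250 bases before the first start that RefSeq lists are given for the 4 most risen members with a match. Ifit1 and Oas3 are named here only for that, after their values were seen. Capitals mark matches to the element, searched on both strands as GAAA, any 2 bases and GAAA again.
Ifit3 (chr19:34583279-34583528, plus strand): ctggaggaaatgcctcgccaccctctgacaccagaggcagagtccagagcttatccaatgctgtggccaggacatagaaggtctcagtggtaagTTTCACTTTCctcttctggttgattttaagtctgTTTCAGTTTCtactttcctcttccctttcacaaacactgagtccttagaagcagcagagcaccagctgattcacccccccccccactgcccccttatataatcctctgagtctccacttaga
Bst2 (chr8:71537473-71537722, minus strand): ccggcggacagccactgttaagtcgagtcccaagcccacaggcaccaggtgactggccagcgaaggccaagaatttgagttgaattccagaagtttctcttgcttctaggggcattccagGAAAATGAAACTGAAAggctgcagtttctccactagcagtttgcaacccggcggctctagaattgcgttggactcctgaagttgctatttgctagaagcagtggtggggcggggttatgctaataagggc
Ifit1 (chr19:34640639-34640888, plus strand): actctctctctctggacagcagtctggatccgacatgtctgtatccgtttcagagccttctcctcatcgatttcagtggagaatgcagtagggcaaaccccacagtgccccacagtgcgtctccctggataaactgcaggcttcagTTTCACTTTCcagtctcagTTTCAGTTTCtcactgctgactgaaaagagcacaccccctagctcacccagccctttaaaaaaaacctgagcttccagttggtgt
Oas3 (chr5:120777660-120777909, minus strand): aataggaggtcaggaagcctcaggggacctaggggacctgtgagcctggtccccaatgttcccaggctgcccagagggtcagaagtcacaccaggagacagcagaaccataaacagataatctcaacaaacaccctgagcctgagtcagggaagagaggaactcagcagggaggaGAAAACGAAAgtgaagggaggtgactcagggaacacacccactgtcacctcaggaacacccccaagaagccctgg
Ifit3 and Ifit1 each held 2 matches on the opposite strand, Bst2 held 2 that overlap each other, and Oas3 held 1. Oas2 rose more than any of the 4 and Ifi44 more than Bst2, but each had either no match or no promoter at hand. The pattern was in 821 of 27025 RefSeq promoters of that length (3.04%), in 11 of the 20 list members with a promoter in the table, and in 9 of the 14 that rose, or 9 of the 16 that rose without replicate 1. A match is a description of these letters only.

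Ifit3, an interferon-induced protein that binds other IFIT proteins, had 169, 122 and 146 CPM in the day 7 libraries, against 10.1, 18.8 and 52.4 CPM in the day 3 libraries (log2 change 2.44 ± 0.41, adjusted p = 1.51e-04). Its day 3 libraries were spread, and the change was 3.34 without replicate 3 of day 3. Ifit3 has a near-identical copy, Ifit3b, so its counts are uncertain. Bst2, which tethers budding virus to the cell, had 888, 237 and 263 CPM in the day 7 libraries, against 108, 116 and 106 CPM in the day 3 libraries (log2 change 2.08 ± 0.34), and 1.19 without replicate 1, whose value is more than the sum of the other day 7 libraries. Oas2, a sensor of double-stranded RNA, had 5.49, 2.86 and 3.93 CPM in the day 7 libraries, against 0.811, 0.765 and 0.505 CPM in the day 3 libraries (log2 change 2.53 ± 0.30), and Ifi44 had 9.58, 7.55 and 14.5 CPM in the day 7 libraries, against 2.11, 2.88 and 2.44 CPM in the day 3 libraries (log2 change 2.08 ± 0.45). Ifit1, which binds viral RNA, had 87.1, 71.4 and 81.9 CPM in the day 7 libraries, against 8.702, 18.4 and 39.6 CPM in the day 3 libraries, and Oas3, another RNA sensor, had 2.81, 2.45 and 3.44 CPM in the day 7 libraries, against 0.622, 0.971 and 1.14 CPM in the day 3 libraries.

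Genes of sterol and fatty acid synthesis fell together. These genes are switched on by SREBP factors when cells are short of sterol. Of 25 tested 22 fell and none rose, with a median log2 change of -0.91, and all 25 fell without replicate 1, beside 12.9% and 17% lower over all genes tested. Lss, which closes the sterol ring, had 40.5, 58.7 and 69.1 CPM in the day 7 libraries, against 162, 174 and 171 CPM in the day 3 libraries (log2 change -1.59 ± 0.13, adjusted p = 3.40e-08), and Scd1, which desaturates fatty acids, had 181, 284 and 313 CPM in the day 7 libraries, against 805, 706 and 647 CPM in the day 3 libraries (log2 change -1.47 ± 0.16). Elovl6, which lengthens fatty acids, fell by 1.25 ± 0.15. No library of one day reached the range of the other in these 3 genes. Such a fall with no overlap of libraries was found in 16.6% of all genes tested. A sterol response element, TCACNCCAC on either strand, was in 280 of the 27025 promoters (1.04%) and in 1 of 15 members with a promoter.

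Mitotic genes were lower at day 7. Of 24 genes of G2 and M phase 20 fell and none rose, with a median log2 change of -0.57, and 19 fell without replicate 1. Of 22 genes of S phase 8 fell and none rose, with a median of -0.25, and 11 fell without replicate 1, and 5 fell without replicate 3 of day 3. Over all genes tested 12.9% fell and 16.6% rose. Ccnb1, the cyclin that drives entry to mitosis, had 24.2, 34.3 and 37.1 CPM in the day 7 libraries, against 57.1, 52.4 and 57.2 CPM in the day 3 libraries (log2 change -0.80 ± 0.12, adjusted p = 4.03e-05). Bub1, a kinase of the spindle checkpoint, fell by 0.88 ± 0.20, Hmmr by 0.86 ± 0.19 and the kinesin Kif23 by 0.83 ± 0.16. Mki67, the antigen of cycling cells, had 39.6, 47.1 and 54.1 CPM in the day 7 libraries, against 76.1, 73.5 and 57.6 CPM in the day 3 libraries (log2 change -0.56 ± 0.18, adjusted p = 0.0242), and it was not called without replicate 1 of day 7 (-0.45, adjusted p = 0.056) or without replicate 1 or 2 of day 3 (adjusted p = 0.0944 and 0.0817). Over 18 cyclin-dependent kinase inhibitor and p53 target genes 10 rose and none fell, with a median of 0.54, and 12 rose without replicate 1, beside the 16.6% over all genes. Cdkn2a, which holds the inhibitor p16, had 206, 91.5 and 79.6 CPM in the day 7 libraries, against 27.2, 27.5 and 29.4 CPM in the day 3 libraries (log2 change 2.17 ± 0.26; 1.61 without replicate 1). Gdf15, a secreted stress factor, rose by 2.12 ± 0.21, Cdkn1c, which codes for the inhibitor p57, by 1.96 ± 0.20 and Btg2, an antiproliferative p53 target, by 1.63 ± 0.11.

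Immediate early genes, which answer growth factors and stress within minutes, were higher at day 7, with 12 of 17 risen and 2 fallen, a median log2 change of 0.80, and 15 risen and 2 fallen without replicate 1. Over all genes tested 16.6% rose and 12.9% fell, and the 2 falls were near that share. Fos, a subunit of the AP-1 factor, had 119.8, 158 and 183 CPM in the day 7 libraries, against 56.6, 57.6 and 46.9 CPM in the day 3 libraries (log2 change 1.51 ± 0.13, adjusted p = 7.52e-08), and Junb, its partner, had 350.1, 247 and 266 CPM in the day 7 libraries, against 112, 121 and 122 CPM in the day 3 libraries (log2 change 1.28 ± 0.10). Ier2 rose by 1.70 ± 0.27, and by 1.05 without replicate 1. Fosl1, a Fos relative, had 2.61, 7.99 and 9.86 CPM in the day 7 libraries, against 13.1, 18.4 and 17.6 CPM in the day 3 libraries and fell (log2 change -1.28 ± 0.30; -0.88 without replicate 1).

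Signalling lists held changes both ways, and several of their counts were near the 16.6% higher and 12.9% lower over all genes tested, among them those of the lysosome and iron genes. Of 28 TGF-beta and BMP genes 13 rose and 5 fell, and 14 rose and 6 fell without replicate 1: Id2, a BMP target, had 65.0, 72.4 and 69.5 CPM in the day 7 libraries, against 31.4, 25.98 and 27.5 CPM in the day 3 libraries (log2 change 1.28 ± 0.08), and Inhba, the activin A subunit, had 17.2, 47.2 and 55.01 CPM in the day 7 libraries, against 173, 159 and 128 CPM in the day 3 libraries (log2 change -1.95 ± 0.29). Of 19 Wnt genes 5 rose and 5 fell, and 8 rose and 5 fell without replicate 1. Dkk3, a member of the Dickkopf family, had 37.1, 47.4 and 48.1 CPM in the day 7 libraries, against 14.9, 10.7 and 9.05 CPM in the day 3 libraries (log2 change 1.93 ± 0.15), and Rnf43, which removes Wnt receptors, rose by 3.48 ± 0.54, at under 3 CPM in every library. Of 27 Eph and guidance genes 8 rose and 3 fell, and 11 rose and 3 fell without replicate 1, while 5 fell without replicate 2 or 3 of day 7. The Eph receptor Ephb2 rose by 1.18 ± 0.13 and the semaphorin Sema3f by 1.16 ± 0.09. Hypoxia and glycolysis genes counted 2 higher and 6 lower of 23, and 2 higher and 10 lower without replicate 1, while 4 were higher without replicate 2 or 3 of day 7. Pfkfb3, which speeds glycolysis in sprouting endothelium, had 47.8, 95.6 and 102 CPM in the day 7 libraries, against 252, 241 and 213 CPM in the day 3 libraries (log2 change -1.52 ± 0.19; -1.25 without replicate 1). Of 20 genes of unfolded protein and amino acid stress 2 rose and 6 fell, and 3 rose and 10 fell without replicate 1, and 4 rose without replicate 3 of day 7, with Slc7a11, the cystine transporter, at -2.05 ± 0.20. Of 21 lysosome and iron genes 4 rose and 2 fell, and 3 rose and 5 fell without replicate 1, and 7 rose without replicate 3 of day 7, with Hmox1, heme oxygenase, at -1.25 ± 0.08. Among 22 inflammatory genes 7 rose and 4 fell, and 10 rose and 4 fell without replicate 1. Nfkbia, the NF-kappaB inhibitor, had 90.1, 75.96 and 73.03 CPM in the day 7 libraries, against 36.5, 35.6 and 36.1 CPM in the day 3 libraries (log2 change 1.14 ± 0.08).

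**Figure D4:**
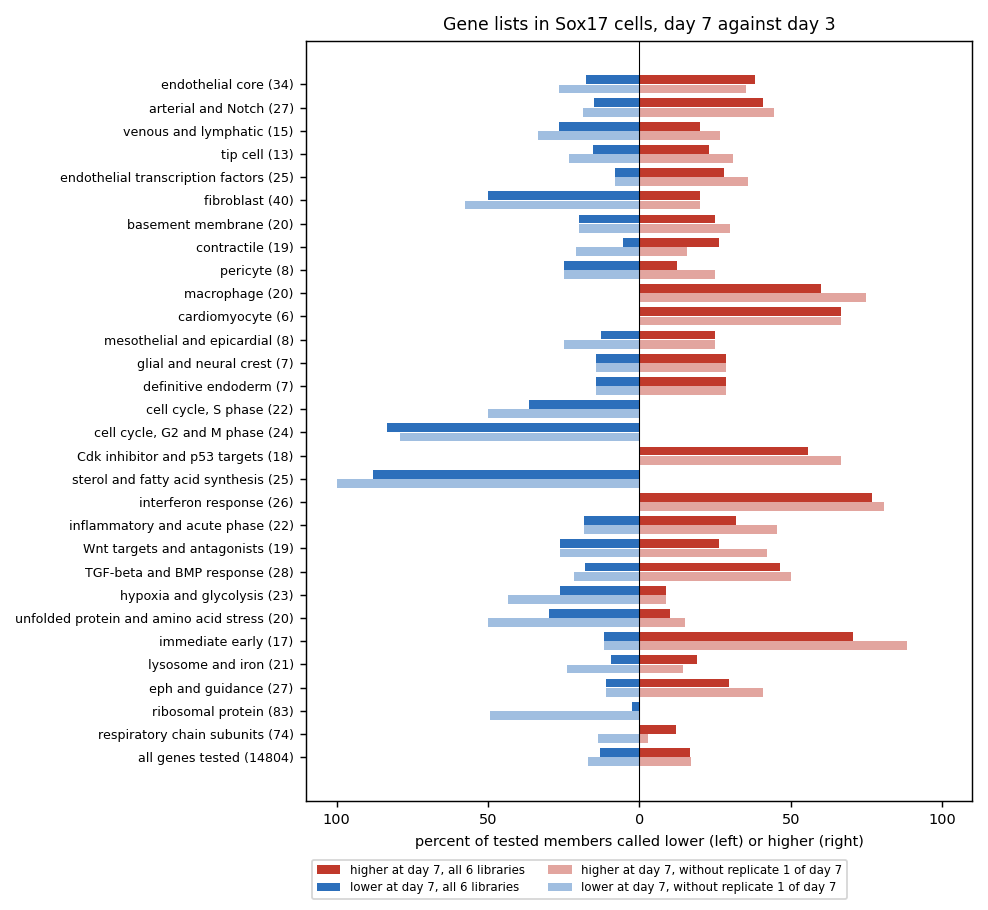
Percent of the tested members of each gene list (number in parentheses) called higher (right, red) or lower (left, blue) at day 7, with all 6 libraries (dark bars) and without replicate 1 of day 7 (pale bars). Interferon genes lie right, with 20 of 26 higher, and sterol genes left, with 22 of 25 lower, while respiratory chain genes change side between the bars and ribosomal protein genes count 2 lower with replicate 1 and 41 without it, with 1 gene in both.

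Lists of short genes depended on replicate 1. Of 74 respiratory chain subunits 9 rose and none fell with it, at a median log2 change of 0.50, against 2 risen and 10 fallen without it, at -0.13. DESeq2 called 16 higher. The edgeR test called 43 and 50 higher without replicate 2 or 3 of day 7, and 2, 4 and 4 higher without replicate 1, 2 or 3 of day 3. Of 83 ribosomal protein genes none rose and 2 fell with it, at a median of 0.31, against none risen and 41 fallen without it, at -0.32, and 13 and 31 rose without replicate 2 or 3 of day 7. No direction is drawn for either list. The 13 mitochondrially encoded genes had a median of -0.22 with replicate 1 and 0.12 without it. The edgeR test called none of them in either fit, and with replicate 1 none had an unadjusted p under 0.05. DESeq2 also called none. Of 15 settings run, 1 called 2 of these genes higher, and no setting called any lower. Cox8b, a heart and muscle subunit of cytochrome oxidase, had 2.996, 0.764 and 0.680 CPM in the day 7 libraries and 0 counts in the day 3 libraries, which makes it at least 46.7-fold higher over the floor of 3 counts for the group. Replicate 1 was the highest, and without it the bound was 22.8-fold.

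Markers of other cell types that a heart culture can hold also moved. Of 20 macrophage genes 12 rose and none fell, and 15 rose without replicate 1, where 16.6% of all genes tested rose and 12.9% fell. Their summed level was 304, 265 and 210.1 CPM in the day 7 libraries, against 163, 133 and 137 CPM in the day 3 libraries, and no gene of the list was at 0 on either day. C1qa, a chain of complement C1q made by macrophages, had 42.01, 17.2 and 14.5 CPM in the day 7 libraries, against 6.62, 5.09 and 5.22 CPM in the day 3 libraries (log2 change 2.12 ± 0.28). Csf1r, the receptor that macrophages live by, rose by 0.95 ± 0.16, while Ptprc, the pan-leukocyte antigen, had 0.499, 0.982 and 0.416 CPM in the day 7 libraries, against 0.568, 0.559 and 0.253 CPM in the day 3 libraries and was not called (adjusted p = 0.38). The sum of 16 cardiomyocyte genes was 81.6, 27.4 and 28.7 CPM in the day 7 libraries, against 12.2, 12.2 and 15.3 CPM in the day 3 libraries. Of 6 tested, 4 rose and none fell with replicate 1, and 4 rose and none fell without it, with 3 genes in both. Most of the sum was Tnnt2, cardiac troponin T, with 72.8, 20.5 and 24.7 CPM in the day 7 libraries, against 10.3, 9.71 and 12.5 CPM in the day 3 libraries (log2 change 1.87 ± 0.32; 1.07 without replicate 1). No cardiomyocyte gene was at 0 at day 7 and 2 were at day 3. The sum of 11 mesothelial genes was 24.4 to 44.5 CPM at day 7, against 52.3 to 58.5 CPM at day 3, with none and 1 at 0, and of 8 tested 2 rose and 1 fell, against 2 and 2 without replicate 1. For 9 glial and neural crest genes it was 124 to 176 CPM at day 7, against 212 to 253 CPM at day 3, with none and 1 at 0, and of 7 tested 2 rose and 1 fell, and the same genes without replicate 1. Foxd3, a neural crest transcription factor, had 8.03, 10.6 and 8.198 CPM in the day 7 libraries, against 0.351, 0.324 and 0.589 CPM in the day 3 libraries (log2 change 4.43 ± 0.54). The sum of 10 pericyte genes was 208 to 348 CPM at day 7, against 267 to 298 CPM at day 3, with 1 and 2 at 0, and of 8 tested 1 rose and 2 fell, against 2 and 2 without replicate 1. Of 7 definitive endoderm genes tested 2 rose and 1 fell with replicate 1, and 2 rose and 1 fell without it, with 1 risen gene in both. These lists are small, and counts of 1 or 2 genes are no result beside the shares over all genes. The part of these cells in the other changes was not tested.

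The day itself was set against the control fibroblasts, where 2385 of 14804 genes rose (16.1%) and 1983 fell (13.4%) between the days. The change in Sox17 cells differed from that in control cells, by the interaction term of the same edgeR fit, in both directions. It was higher in 1127 genes (7.61%) and lower in 986 (6.66%), and without replicate 1 higher in 1429 (9.65%) and lower in 1387 (9.37%). All 24 genes of G2 and M phase had a higher change in Sox17 cells, with a median log2 change of -0.57 in Sox17 cells and -2.11 in control cells. Of 22 genes of S phase 21 had a higher change, with medians of -0.25 and -1.46. Ccna2, the cyclin of S and G2 phase, changed by -0.54 ± 0.10 in Sox17 cells and -2.48 in control cells (difference 1.93 ± 0.15, adjusted p = 3.30e-08). Without replicate 1 the same counts of 24 and 21 were called. In control cells all 24 and all 22 fell.

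Contractile genes parted in the same way, with 10 of 19 higher in change and none lower, and 11 higher without replicate 1, beside 7.61% higher and 6.66% lower over all genes tested. These shares were 9.65% and 9.37% without replicate 1. In control cells 12 of the 19 contractile genes fell, beside 13.4% of all genes tested. Acta2 changed by 0.63 in Sox17 cells and -2.12 in control cells (difference 2.76 ± 0.25, adjusted p = 3.17e-07; 2.47 without replicate 1). Tagln changed by 0.08 and -3.15 (difference 3.22 ± 0.31, adjusted p = 4.57e-07). Inflammatory genes went the opposite way, with 15 of 22 lower in change and 1 higher, and 16 and 2 without replicate 1, beside 6.66% lower and 7.61% higher over all genes. In control cells 18 of them rose, beside 16.1% of all genes tested, at a median log2 change of 1.42. C4b, a complement component with a near-identical copy and so uncertain counts, changed by 1.36 in Sox17 cells and 3.43 in control cells. Of 17 immediate early genes 8 had a higher change in Sox17 cells and none a lower one, and 11 and none without replicate 1, where 7.61% of all genes had a higher change.

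Interferon genes also rose, and sterol genes also fell, in control cells, where 16.1% of all genes tested rose and 13.4% fell. The 26 interferon genes had a median log2 change of 1.08 in Sox17 cells and 1.30 in control cells, where 23 rose, and the difference was called in 1 gene, and in 3 without replicate 1. The 25 sterol genes had medians of -0.91 and -0.81, all 25 fell in control cells, and the difference was called in 2, and in 4 without replicate 1. Macrophage genes had medians of 0.96 and 0.87, with 3 differences called, and 2 without replicate 1, and a summed level in control cells of 215 to 267 CPM at day 7, against 163 to 165 CPM at day 3. For the 34 core endothelial genes the change in Sox17 cells was higher in 3 and lower in 7, and in 4 and 9 without replicate 1. For the 40 fibroblast genes it was higher in 6 and lower in 12, and in 9 and 15 without replicate 1. Over all genes tested it was higher in 7.61% and lower in 6.66%, and the 3 endothelial genes were near that share. The shares without replicate 1 were 9.65% higher and 9.37% lower. A difference that was not called does not show that the changes were equal. Among vessel genes, the difference from control was 4.11 ± 0.68 for Pdgfb (adjusted p = 2.43e-04), 1.63 ± 0.35 for Hey1 (adjusted p = 0.0027), 1.96 ± 0.34 for Flt4 (adjusted p = 4.72e-04), -1.91 ± 0.54 for Kdr (adjusted p = 0.0204) and -1.16 ± 0.32 for Efnb2 (adjusted p = 0.0195). For Gja5 it was 3.12 ± 1.72 and was not called (adjusted p = 0.254), where control cells held 4 counts of it over the day 7 libraries and 2 over the day 3 libraries.

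**Figure D5:**
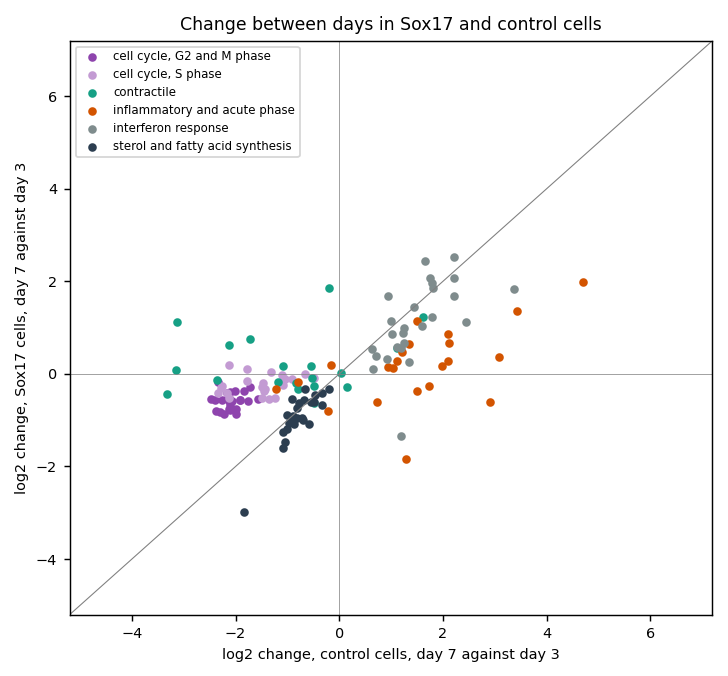
Log2 change between day 7 and day 3 in Sox17 cells (vertical axis) and control cells (horizontal axis) for the members of 6 gene lists, with the line of equal change. Genes of G2 and M phase lie above the line, with medians of -0.57 in Sox17 and -2.11 in control cells, and inflammatory genes mostly lie below it, with medians of 0.18 and 1.42.

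Against Erg cells the change differed upward in 1309 genes (8.84%) and downward in 1090 (7.36%), and without replicate 1 in 2400 (16.2%) and 2412 (16.3%). Sterol genes had a median log2 change of -0.91 in Sox17 cells and -1.76 in Erg cells, with 20 of 25 differences upward, and 24 without replicate 1. Macrophage genes had medians of 0.96 and 2.34, with 16 of 20 differences downward, and 19 without replicate 1. Interferon genes had medians of 1.08 and 2.29, with 10 of 26 differences downward, and 18 without replicate 1. Of 24 genes of G2 and M phase 13 differences were downward, and 17 without replicate 1, beside a median of -0.04 in Erg cells, where 1 fell. Against SEG cells the change differed upward in 573 genes (3.87%) and downward in 534 (3.61%), and without replicate 1 in 1052 (7.11%) and 968 (6.54%). Of the G2 and M phase genes 10 had a higher change in Sox17 cells, and 21 without replicate 1, beside a median of -1.21 in SEG cells. Interferon genes had a lower change in 7 of 26, and in 12 without replicate 1, beside a median of 2.27 in SEG cells. Replicate 1 of SEG at day 7 also deviated with transcript length, by a median log2 difference from its fellows of 0.49 in the shortest decile and -0.61 in the longest. Without it and replicate 1 of Sox17 at day 7, the change differed from SEG upward in 1204 genes and downward in 1178. The differences from control, Erg and SEG share the 6 Sox17 libraries and are not independent of each other.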

How the data were processed

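The deposited values are counts per gene identifier that the authors made with messenger RNA sequencing, 1 column a library, with 0 other columns of per-sample values. Salmon, DESeq2 and the mm10 build are named in the submitters' processing notes, without roles, and neither versions nor strand use are given in the sources used here. Reads of near-identical genes can be split between the copies in counting, so such genes are called uncertain. Of 35727 identifiers, 35422 had a gene name and length in GENCODE M21, and 305 did not. Counts were tested with edgeR 4.0.16 (limma 3.58.1, R 4.3.3): filterByExpr with a minimum count of 10, TMM scaling, 8 group means over 24 libraries (16 residual degrees of freedom), the quasi-likelihood test, a prior count of 0.125 for fold changes, and Benjamini-Hochberg adjusted p under 0.05 over 14804 genes. CPM used the same scaling. DESeq2 1.42.0 was an alternative. Python 3.11.15, pandas 2.3.3 and matplotlib 3.10.9 made the tables and figures.

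The members and 30 gene lists (737 genes, 736 matched) were chosen with earlier results of these data known. Genes named were the 12 largest rises and 12 largest falls with at least 10 CPM on one day and no overlap of libraries, in every list the called genes with at least 1 CPM whose change was largest, 4 at most, genes fixed by name, and the 5 largest differences each way from each other condition, all but the fixed and list genes called also without replicate 1 of day 7, with Ifit1 and Oas3 added for their promoters after their values were seen. A few genes that the rule names are not reported here. On simulated counts of 14804 genes the test called 83 of 100 genes given a 2-fold change and all 100 given a 4-fold one. There were 15 false calls among the genes left unchanged. The changed genes were above 1 CPM and no simulated library deviated with transcript length, so these rates may not hold for the real libraries. Promoters are from RefSeq, GRCm38.p6. Replicate numbers were checked for pairing: deviations of same-numbered Sox17 libraries correlated at -0.27, 0.06 and -0.31 across genes. The length deviation of replicate 1 of day 7 enters these values, so they cannot show whether the numbers pair. Pairing is not stated in the sources used here, and the numbers were not treated as pairs. The floor of 3 counts covers counting error only. Alternatives were RLE size factors, DESeq2, no low-count filter, a 1.5-fold threshold, length offsets, a replicate block, only the groups compared, and leaving out libraries.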

Additional observations from a re-analysis of the deposited data

Results flagged for a closer look

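The change between day 7 and day 3 differed between Sox17 cells and another condition, by the interaction term of edgeR's quasi-likelihood fit, in 1127 genes upward and 986 downward against control cells, 1309 upward and 1090 downward against Erg cells, and 573 upward and 534 downward against SEG cells. Without replicate 1 of day 7 these counts were 1429 and 1387, 2400 and 2412, and 1052 and 968. The genes below are among the 5 largest such differences each way. Each is the log2 change in Sox17 cells minus that in the other condition, and where a group holds few counts its size depends on the prior count.

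Against control cells the differences upward were 6.36 for Prokr2, a prokineticin receptor, 5.89 for Sv2b, 4.74 for Chtf8, 4.25 for Cnn1 and 4.19 for Crabp1, which binds retinoic acid. Prokr2 changed by 1.83 in Sox17 cells and -4.53 in control cells. Chtf8 had 64.6, 6.16 and 3.85 CPM in the day 7 libraries, against 7.41, 6.27 and 8.08 CPM in the day 3 libraries, so replicate 1 alone was high, and its difference was 2.43 without it. Downward they were -7.80 for the complement component C7, -6.26 for Lipf, -5.90 for Akr1c18, -5.68 for Ces1g and -5.40 for Adamts15. C7 had 0 counts over the day 7 libraries and 6 over the day 3 libraries of Sox17 cells. The Lipf difference was not called when any 1 of the 3 day 3 libraries of Sox17 cells was left out (adjusted p of 0.0578 to 0.0625).

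Against Erg cells the differences upward were 7.11 for Penk, 5.57 for Ramp3, 4.64 for Coch, 4.45 for Lrrc4b and 4.44 for Sv2b. Lrrc4b had 15 counts over the day 7 libraries and 1 over the day 3 libraries, and its difference was 3.21 and not called without replicate 2 of day 7 (adjusted p = 0.0885). Downward they were -6.97 for Car12, -5.97 for Akr1c18, -5.64 for the protocadherin Pcdh17, -5.10 for Syndig1 and -5.03 for the proteoglycan Bcan. Syndig1 changed by -0.41 in Sox17 cells and 4.69 in Erg cells.

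Against SEG cells the differences upward were 6.54 for Penk, 5.38 for S100g, 4.97 for Sostdc1, 4.37 for Crabp1 and 4.25 for Fbxo2. Downward they were -7.76 for Mmp9, a matrix protease, -5.55 for Gpr21, -5.15 for Tenm4 and -5.15 for Sfrp2. Mmp9 had 12 counts over the day 7 libraries and 19 over the day 3 libraries of Sox17 cells, while it changed by 6.95 in SEG cells. Gpr21 was not called without replicate 1 of day 3 (-5.07, adjusted p = 0.0677).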

How the results depend on the processing

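No named gene was called in opposite directions under the settings run, but the balance of members risen to members fallen turned under at least 1 setting in 9 of 30 gene lists: contractile, basement membrane, Wnt, tip cell, venous and lymphatic, lysosome and iron, mesothelial, respiratory chain and ribosomal protein genes. Leaving out 1 library at a time gave 1787 to 3409 genes higher and 1406 to 2554 lower at day 7. The same gave 872 to 1750 higher and 734 to 1397 lower for the difference from control, 1096 to 2400 and 877 to 2412 for that from Erg, and 424 to 1052 and 395 to 968 for that from SEG. The highest counts came without replicate 3 of day 7 for the difference from control, and without replicate 1 of day 7 against Erg and SEG. A test beyond 1.5-fold gave 727 higher and 296 lower at day 7, and 352 and 286, 387 and 277, and 148 and 107 for the differences from control, Erg and SEG. Fitting only the groups compared gave 566 and 249, and for the differences 545 and 543, 768 and 575, and 215 and 216. Leaving out replicate 1 of day 7 in both Sox17 and SEG cells gave 2925 lower at day 7, and for the differences 2047 and 1654, 3125 and 3064, and 1204 and 1178. Offsets for transcript length gave 2099 higher against Erg and 1038 higher against SEG. With the replicate number as a replicate block, 1676 genes were higher and 1464 lower at day 7, and the differences gave 702 and 584 against control, 722 lower against Erg, and 296 and 274 against SEG. Whether the numbers pair the libraries is not known.

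Of 161 named genes, 149 kept the same call without replicate 1 of day 7, 10 lost it and 2 gained it. The largest rises and falls were named only if also called without it, and a gene called in neither fit counts as kept. Over all genes tested, 73.4% of the rises and 83.3% of the falls were also called without it. DESeq2 kept 160, RLE size factors 159, no low-count filter 158, length offsets 156, the replicate block 152, the 1.5-fold test 122 and the fit of only the groups compared 102. The causes were not tested. With 3 libraries a group and no library that deviated with length, 83 of 100 simulated 2-fold changes were found, so smaller changes can be missed.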
